A study of Mus musculus with 18 samples.

Results

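The renin-angiotensin-aldosterone system genes described here are the substrate Agt, the enzymes Ren1 and Ace, the receptors Agtr1a, Agtr1b, Agtr2 and Mas1, the (pro)renin receptor Atp6ap2 and the mineralocorticoid receptor Nr3c2. They were chosen by symbol, 9 of the 51435 genes with deposited values. Of the 9, 6 (Agt, Ace, Agtr1a, Atp6ap2, Mas1 and Nr3c2) had counts in every mouse, Agtr2 and Ren1 had a few counts in some mice, and Agtr1b had none. With more than 1 count in total, 8 of them were among the 24804 genes tested.

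RNA was sequenced from the left ventricle (LV) of 9 WWP2 Mut/Mut mice and 9 WT littermates on a C57BL/6J-based background. All 18 mice were males given angiotensin II (AngII) at 500 ng/kg/min for 28 days by a subcutaneous minipump placed at 8 weeks of age. WWP2 Mut/Mut mice are homozygous for a CRISPR/Cas9 deletion of 4 bp in exon 2 of Wwp2 in every cell, which shifts the reading frame of the full-length and N-terminal isoforms of this E3 ubiquitin ligase and leaves the C-terminal isoform. No saline-infused mouse is among the 18, so the values compare genotypes under AngII and carry no measure of the response to AngII itself.

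Renin cuts angiotensinogen, a plasma protein made mainly by the liver, to angiotensin I, and angiotensin-converting enzyme turns this into AngII. AngII acts on AT1 and AT2 receptors, drives aldosterone release from the adrenal cortex, and raises blood pressure, while the Mas receptor binds the shorter peptide angiotensin-(1-7). In the heart, AT1 signaling is known for promoting hypertrophy and fibrosis. Under a continuous infusion of the end product, transcripts of the upstream genes in the LV are one part of the local pathway, and circulating components made in kidney, liver and adrenal gland are not measured here.

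Expected counts per mouse summed to between 24566994 and 37451087, and each of the 4 lanes held libraries of WT and of WWP2 Mut/Mut mice. Wwp2 was lower in every WWP2 Mut/Mut mouse (1.19 to 3.00 TPM, a level scaled by transcript length and library, median 1.58) than in any WT mouse (3.83 to 6.01 TPM, median 5.10), with a log2 fold change of -1.40 (SE 0.157, edgeR's quasi-likelihood test, Benjamini-Hochberg adjusted p = 0.00113). Ventricular cardiomyocyte markers summed to between 58000 and 75800 TPM in all 18 mice. Transcripts of the liver and of the atrium were present in some libraries: Alb (albumin) ranged from 0.07 to 112.5 TPM, and 5 libraries (WT 43-3, 45-1 and 84-2, WWP2 Mut/Mut 22-3 and 8-2) had a summed level of the atrial genes Myl7, Myl4 and Sln more than 10 times the median. In bulk tissue, fewer cells of a type and less RNA per cell cannot be told apart.

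No member passed the test between genotypes. Of the 8 tested, 0 passed an FDR of 0.05 (edgeR's quasi-likelihood test, adjusted over all 24804 genes, adjusted p = 1.0 for the 6 with counts in every mouse), and 0 had an unadjusted p under 0.05. DESeq2 also called 0 of them, with 1 member, Agtr1a, at an unadjusted p under 0.05. Over all genes tested, 0.00403% passed the FDR (1 gene, Wwp2) and 3.66% had an unadjusted p under 0.05, made up of 1.09% that were higher and 2.57% that were lower in WWP2 Mut/Mut mice. The fitted log2 fold changes of the 6 members lay between -0.25 and 0.23, beside a median of -0.01 over all genes.

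**Figure D1:**
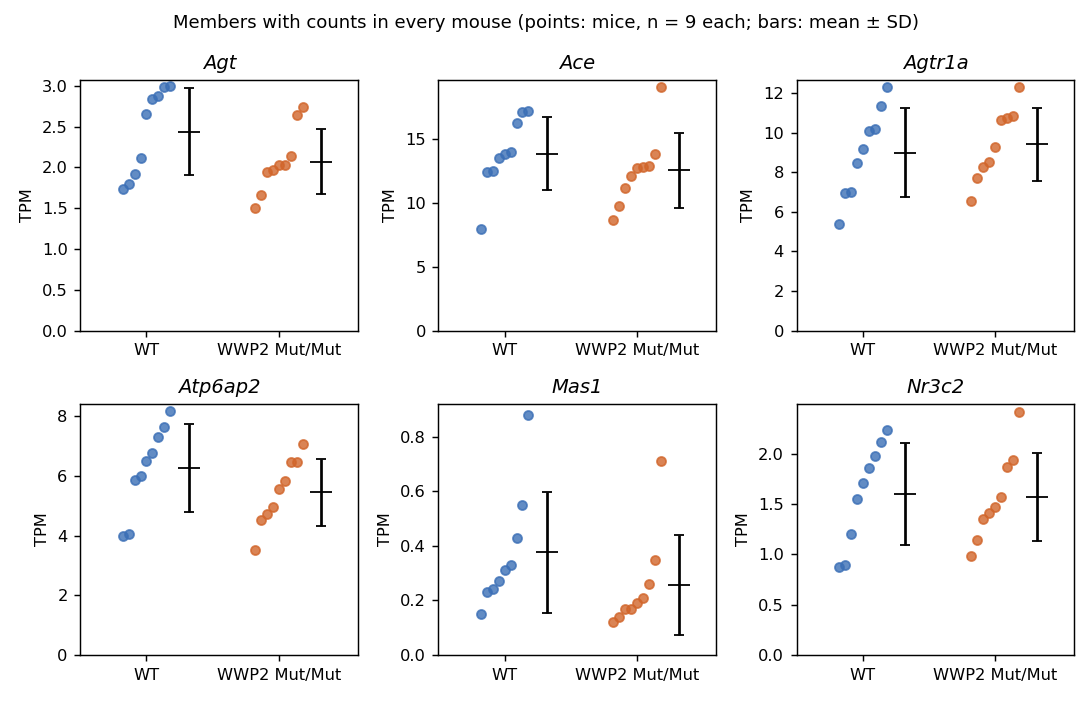
Level in TPM (vertical axes, from 0) of the 6 members with counts in every mouse, in WT (blue, left) and WWP2 Mut/Mut mice (orange, right). Each point is 1 mouse (n = 9 per genotype, ordered by value), and the black bars give the mean ± SD. The ranges of the genotypes overlap for every gene shown.

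Since TPM is scaled by transcript length, levels can be set beside each other across genes. In TPM, Ace was the highest of the members in all 18 mice, followed by Agtr1a, which was above Atp6ap2 in 17 of 18 mice. Atp6ap2 was above Agt in all 18 mice, Agt above Nr3c2 in 16 of 18, and Nr3c2 above Mas1 in all 18. Among the 6 members with counts in every mouse, Agt and Nr3c2 were thus the neighbours whose order varied most from mouse to mouse, with a median ratio of Agt to Nr3c2 of 1.44. Among the 9 members the converting enzyme and the AT1a receptor were thus the most abundant transcripts in TPM, and renin was nearly undetected.

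Agt encodes angiotensinogen, the precursor of all angiotensin peptides (chr8:124556534-124569706, minus strand, GRCm38). Its level was 1.74 TPM in the lowest WT mouse, 2.66 at the median and 3.00 in the highest, and 1.5, 2.03 and 2.74 TPM in WWP2 Mut/Mut mice, from 93 to 247 counts per mouse. The genotypes overlapped, although 4 WT mice exceeded all WWP2 Mut/Mut mice and 2 WWP2 Mut/Mut mice were lower than all WT mice. Mean levels were 2.44 ± 0.534 TPM and 2.07 ± 0.403 TPM (SD, n = 9 each, two-sided exact permutation test, p = 0.124), and their difference was smaller than either SD. In the fit with lane and RNA concentration the log2 fold change was -0.11 (SE 0.181, edgeR's quasi-likelihood test, adjusted p = 1.0). It was -0.26 without WWP2 Mut/Mut 24-3, -0.01 without WWP2 Mut/Mut 33-1 and -0.20 with the deposited gene body coverage fraction as a further covariate. Mean Agt was 2.82 TPM in WT and 1.58 TPM in WWP2 Mut/Mut mice in lane 1, and 2.4 and 2.04 TPM in lane 2. It was 2.01 and 2.0 TPM in lane 3, and 2.48 and 2.69 TPM in lane 4. In CPM (counts scaled to library size) the WWP2 Mut/Mut mean was lower in lane 1 (4.11 and 8.04) and higher in lanes 2, 3 and 4. The direction thus differed between lanes and between units.

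Because the liver is the main source of angiotensinogen, Agt was read beside the liver transcripts in each library. Alb was 0.07 TPM in the lowest WT mouse, 22.5 at the median and 112.5 in the highest, and 0.33, 3.96 and 18 TPM in WWP2 Mut/Mut mice. All 20 genes of the liver list were lower in WWP2 Mut/Mut mice at an unadjusted p under 0.05 and 0 passed the FDR (edgeR), and their summed level was 33 to 487 TPM (median 147) in WT and 30.2 to 122 TPM (median 52.9) in WWP2 Mut/Mut mice (exact permutation test, p = 0.0433). No liver gene of the list was at 0 throughout. The 5 mice with Alb below 1 TPM (2 WT and 3 WWP2 Mut/Mut) still had Agt between 1.92 and 2.74 TPM, median 2.11, against 1.5 to 3.00 TPM, median 2.03, in the other 13. These ranges pool the genotypes, and the 2 WT mice among the 5 had Agt of 1.92 and 2.11 TPM. A straight line of Agt on Alb over the 18 mice had an intercept at an Alb of 0 of 2.09 TPM (SE 0.123) and a slope of 0.00965 TPM of Agt per TPM of Alb (SE 0.00398). Without WT 45-1, the library with the highest Alb, the intercept was 2.02 TPM (SE 0.148) and the slope 0.0169 (SE 0.00892). Each line pools the genotypes, whose correlations of Agt with Alb had opposite signs (r = 0.728 in WT and -0.618 in WWP2 Mut/Mut mice). It thus describes neither genotype alone.

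Within WT mice, Agt was higher where Alb was higher. The 5 WT mice whose Alb exceeded that of every WWP2 Mut/Mut mouse had Agt from 2.66 to 3.00 TPM, and the other 4 WT mice had 1.74 to 2.11 TPM. Within WWP2 Mut/Mut mice the 2 highest Agt levels, 2.74 and 2.64 TPM, were in mice with Alb of 0.90 and 2.63 TPM. Over all 18 mice the correlation of log2(TPM + 1) of Agt and Alb was weak (Pearson r = 0.353, permutation p = 0.147, adjusted over the 6 members 0.362, and Spearman rho = 0.398, permutation p = 0.103, adjusted 0.424), was 0.177 without the 2 mice farthest from the median Alb, and was 0.399 after centring by lane. Within genotypes r was 0.728 in WT (n = 9, exact permutation p = 0.0268, rho = 0.717) and -0.618 in WWP2 Mut/Mut mice (n = 9, exact permutation p = 0.0803, rho = -0.622). These correlations differed between genotypes by 1.65 after Fisher's transformation (exact permutation of the genotype labels over 48620 divisions, p = 0.00535, a test chosen after the values were seen). With Alb as a further covariate the log2 fold change of Agt was 0.05 (SE 0.210, edgeR, adjusted p = 0.981). With the liver list it was 0.08 (SE 0.214, adjusted p = 0.977), so the direction of the small difference turned. Both fits use a common slope for the genotypes, whose correlations had opposite signs and whose Alb covered different ranges. The fitted values are therefore not a difference between genotypes freed of liver transcripts. For the other 5 members with counts in every mouse, r with Alb lay between -0.341 and 0.331, and the lowest adjusted p of these permutation tests was 0.362. For Agtr1a, r was -0.341 over the 18 mice and -0.574 without the 2 mice farthest from the median Alb, and with the liver list it was -0.296 and -0.591.

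**Figure D2:**
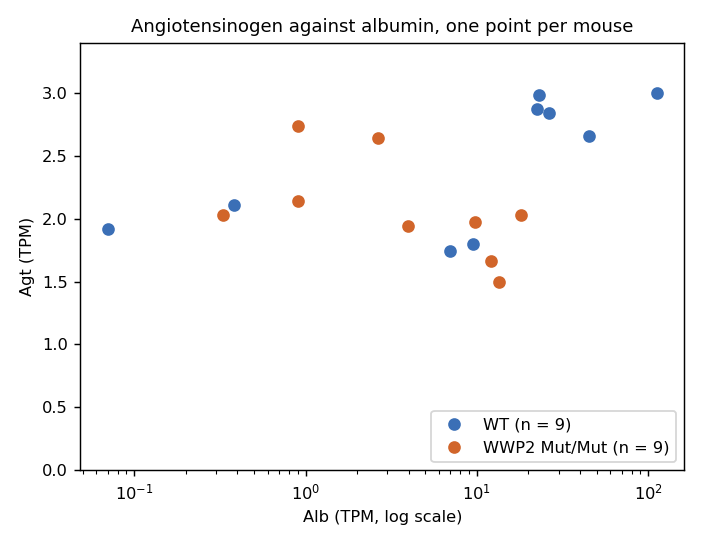
Agt in TPM (vertical axis, from 0) against Alb in TPM (horizontal axis, log scale), 1 point per mouse, WT in blue and WWP2 Mut/Mut in orange. The 5 WT mice with the most Alb sit at 2.66 to 3.00 TPM of Agt, and the 5 mice with Alb below 1 TPM sit at 1.92 to 2.74 TPM.

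Renin, the aspartyl protease released by the kidney that starts the cascade, was at the edge of detection in the LV. Ren1 (chr1:133350510-133360325, plus strand) had 6 counts over all 18 mice, 3 in WT 84-2, 1 in WT 67-1 and 2 in WWP2 Mut/Mut 24-3, and its highest level was 0.05 TPM. The other 15 mice had none. A floor of 3 counts corresponds to 0.0801 to 0.122 CPM (counts scaled to library size) in a single library and covers counting error only, so no difference between genotypes was detectable for Ren1 at this depth.

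Ace (chr11:105967945-105989964, plus strand) encodes the converting enzyme, a peptidase of the endothelial surface that forms AngII and degrades bradykinin. It was measured from 1353 to 3389 counts per mouse. Ace was 7.97 TPM in the lowest WT mouse, 13.8 at the median and 17.2 in the highest, and 8.67, 12.7 and 19.1 TPM in WWP2 Mut/Mut mice. The lowest and the highest of the 18 were WT 16-1 and WWP2 Mut/Mut 62-1, and the ranges of the genotypes overlapped. Mean levels were 13.8 ± 2.87 and 12.5 ± 2.94 TPM (SD, n = 9 each, two-sided exact permutation test, p = 0.354), with a log2 fold change of -0.13 (SE 0.121, edgeR's quasi-likelihood test, p = 0.295). It was -0.205 without WT 16-1 and -0.07 without WWP2 Mut/Mut 53-1. In CPM after TMM normalization the means were 72.7 ± 8.56 and 73.0 ± 13.9 (exact permutation test, p = 0.963), so that the means were nearly equal on this scale. Endothelial markers, the cells in which Ace is known to be abundant, summed to 261 to 368 TPM in WT and 237 to 364 TPM in WWP2 Mut/Mut mice (exact permutation test, p = 0.351).

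Agtr1a encodes the AT1a receptor, the G protein-coupled receptor through which AngII raises blood pressure in mice (chr13:30336441-30382867, plus strand), and Agtr1b (chr3:20314473-20367177, minus strand) its close paralog. Reads from such paralogs can be divided wrongly between them where their sequences are identical. Their coding sequences, each of 1077 bases in GENCODE M21, differ at 99 positions (90.8% identity), the longest identical run is 66 bases, and 93 of 1047 coding 31-mers (8.88%) are shared. As an example, the same 60 coding bases of each gene, from coding position 964 to 1023, are given with the 13 bases that differ in capitals. This stretch differs more than the coding sequence does on average. The Agtr1a window lies at chr13:30381917-30381976 on the plus strand and the Agtr1b window at chr3:20315418-20315477 on the minus strand.
Agtr1a: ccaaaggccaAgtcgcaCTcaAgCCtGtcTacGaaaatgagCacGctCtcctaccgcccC
Agtr1b: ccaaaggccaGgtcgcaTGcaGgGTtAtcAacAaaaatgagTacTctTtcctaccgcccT
A read across this window differs between the genes at several positions, and no count was assigned to Agtr1b in any mouse. Over the 18 libraries together, the floor of 3 counts allows Agtr1b up to 0.0053 CPM, while Agtr1a had 14041 counts. The AT1 receptor transcripts measured in these ventricles were those of Agtr1a. Another gene, Gm48161, lies in an intron of Agtr1a on the same strand without overlap of exons and had 944 counts over the 18 mice.

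Agtr1a was 5.4 TPM in the lowest WT mouse, 9.16 at the median and 12.3 in the highest, and 6.52, 9.25 and 12.3 TPM in WWP2 Mut/Mut mice. On this scale the genotypes covered nearly the same range (8.99 ± 2.25 and 9.41 ± 1.85 TPM, SD, n = 9 each, two-sided exact permutation test, p = 0.667). In TMM-normalized CPM, which takes no account of length, Agtr1a was 16.5, 22.8 and 29.0 in WT and 21.4, 25.8 and 33.7 in WWP2 Mut/Mut mice. The means were 22.9 ± 3.75 and 26.9 ± 3.43 CPM (exact permutation test, p = 0.0288, unadjusted, 1 of 6 members tested), and with labels permuted within lanes the difference was 3.46 CPM (exact permutation test, p = 0.0453). In the fit over all genes the log2 fold change was 0.23 (SE 0.114, edgeR's quasi-likelihood test, Benjamini-Hochberg adjusted p = 1.0). This was the largest positive difference among the 6 members with counts in every mouse, and it did not pass the test over all genes.

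The direction for Agtr1a was not the same in every lane. In CPM, the WWP2 Mut/Mut mean was above the WT mean in lanes 1 (29.0 and 22), 3 (29.6 and 23.2) and 4 (23.5 and 20.1) and below it in lane 2 (25.9 and 27.5). In TPM it was above in lanes 1 and 4 and below in lanes 2 and 3, with differences of 3.10, 0.93, -2.08 and -0.76 TPM. Leaving out 1 mouse at a time gave a log2 fold change between 0.17 and 0.29, with the lowest unadjusted p, 0.0219, when WT 45-1 was left out (edgeR). Over the other 19 alternatives the log2 fold change lay between 0.035 and 0.294, and it was lowest with limma on TPM.

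**Figure D3:**
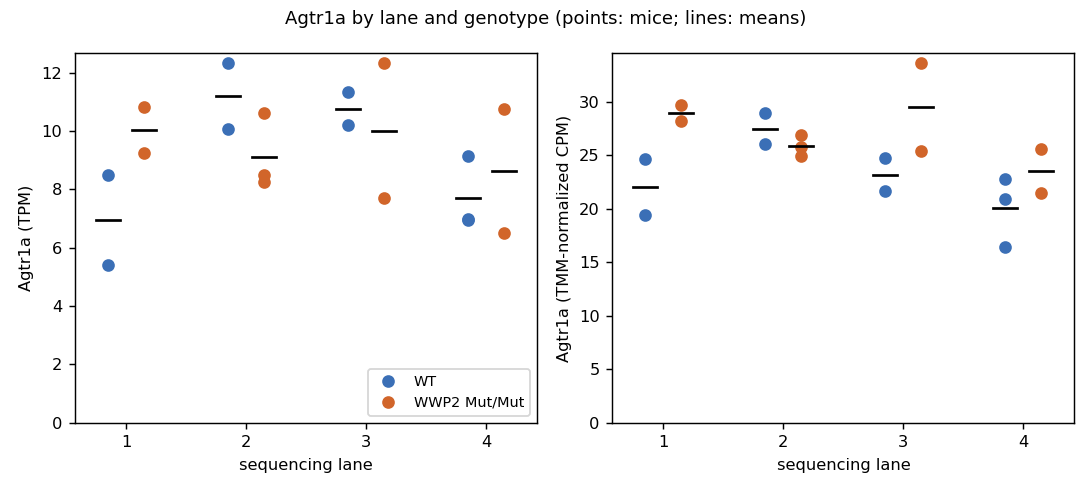
Agtr1a by sequencing lane (horizontal axes) in TPM (left) and in TMM-normalized CPM (right), both from 0. Points are mice (WT blue, WWP2 Mut/Mut orange) and black lines are the means per lane and genotype. In CPM the orange mean is above the blue mean in 3 of the 4 lanes, in TPM in 2.

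Agtr2 (chrX:21484544-21489164, plus strand) encodes the AT2 receptor, which is known for opposing many AT1 effects and for its decline after birth. It had 4 counts over all mice, 1 in WT 39-1 and 3 in WWP2 Mut/Mut 22-3, and 0 in the other 16. Mas1 (chr17:12841079-12868143, minus strand), the receptor for angiotensin-(1-7), was present in every mouse but low, with 8 to 55 counts. Its level was 0.15 TPM in the lowest WT mouse, 0.31 at the median and 0.88 in the highest, and 0.12, 0.19 and 0.71 TPM in WWP2 Mut/Mut mice. The highest WWP2 Mut/Mut mouse, 52-1, stood well above the other 8 of its genotype, which reached 0.35 TPM. Mean levels were 0.377 ± 0.222 and 0.258 ± 0.183 TPM (SD, n = 9 each, two-sided exact permutation test, p = 0.250), and the log2 fold change was -0.25 (SE 0.383, edgeR, p = 0.521). It moved to -0.62 without WWP2 Mut/Mut 52-1 and to -0.04 without WT 45-1, and neither value passed the test. The antisense transcript Airn spans the Mas1 locus with no overlap of exons and had 2955 counts over the 18 mice, against 369 for Mas1.

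Atp6ap2, the (pro)renin receptor, is also an accessory subunit of the vacuolar H+-ATPase that most cells use (chrX:12587801-12617049, plus strand). Atp6ap2 was 4.00 TPM in the lowest WT mouse, 6.5 at the median and 8.17 in the highest, and 3.50, 5.55 and 7.05 TPM in WWP2 Mut/Mut mice. In TPM, 3 WT mice exceeded all WWP2 Mut/Mut mice and 1 WWP2 Mut/Mut mouse was lower than all WT mice. Mean levels were 6.25 ± 1.47 and 5.45 ± 1.13 TPM (SD, n = 9 each, exact permutation test, p = 0.208), with a log2 fold change of -0.13 (SE 0.11, edgeR, p = 0.260). It was -0.06 without WWP2 Mut/Mut 52-1, -0.08 with coverage added, -0.211 with library totals and -0.295 to -0.255 in the limma fits on TPM.

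Nr3c2 encodes the mineralocorticoid receptor, the nuclear receptor for aldosterone that in the heart also binds glucocorticoids (chr8:76899442-77245012, plus strand). Nr3c2 was 0.88 TPM in the lowest WT mouse, 1.71 at the median and 2.24 in the highest, and 0.98, 1.47 and 2.42 TPM in WWP2 Mut/Mut mice. The genotypes had means of 1.6 ± 0.509 and 1.57 ± 0.442 TPM (SD, n = 9 each, exact permutation test, p = 0.891), and the log2 fold change was 0.10 (SE 0.157, edgeR, p = 0.550). With limma on log2(TPM + 1) or log2(TPM + 0.1) the direction turned, to values between -0.06 and -0.05. In edgeR it was 0.19 with coverage added and 0.00 without WT 16-1, and neither value passed the test. Antisense genes overlap exons of Nr3c2 (Gm10649, 70 counts over the 18 mice) and of Ace (Gm11651, 1 count), at levels far below the 6882 and 41613 counts of the members themselves.

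In TPM, the SD within each genotype exceeded the difference between the means for each of these 6 genes, and for several of them the variation between mice followed a measure of the library. The deposited gene body coverage fraction was 0.0288 to 0.054 and covered nearly the same range in both genotypes. In TPM, r with this fraction was -0.878 for Atp6ap2 (permutation p = 1e-05, the smallest these permutations can give, adjusted over 6 members 6e-05, rho = -0.845, permutation p = 5e-05), -0.805 for Nr3c2 (p = 0.0001, adjusted 0.0003, rho = -0.827, permutation p = 6e-05) and -0.654 for Agtr1a (p = 0.0035, adjusted 0.007, rho = -0.643, permutation p = 0.00534). Mice with a high fraction thus had low levels of these genes. For Ace r was -0.559 (permutation p = 0.0155, adjusted 0.0186), with a rho of -0.360 (permutation p = 0.141) and an r of -0.299 without the 2 mice of highest coverage, WT 16-1 and WWP2 Mut/Mut 52-1, so that it rested on those mice. Mas1 went the other way (r = 0.556, permutation p = 0.0145, adjusted 0.0186, rho = 0.488, permutation p = 0.0422), and for Agt no relation was detected in TPM (r = 0.0183, permutation p = 0.942, rho = -0.0836).

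The relations with coverage were computed after the values were seen. Without the 2 mice farthest from the median coverage, r was -0.813 for Atp6ap2, -0.827 for Nr3c2, -0.623 for Agtr1a and 0.505 for Mas1, and after centring by lane it was -0.880, -0.859, -0.665 and 0.513. The mice fell into 8 with a fraction below 0.035 and 10 above it, each with as many WT as WWP2 Mut/Mut mice. Within the 8, r was -0.619 for Atp6ap2, -0.455 for Nr3c2, 0.305 for Agtr1a, -0.389 for Mas1 and -0.183 for Ace, and within the 10 it was -0.865, -0.547, -0.639, 0.309 and -0.818. The relations of Agtr1a and Mas1 therefore did not hold in the lower group, whereas those of Atp6ap2 and Nr3c2 kept their direction in both in TPM. In TMM-normalized CPM, r with coverage was -0.707 for Atp6ap2 (permutation p = 0.00052, adjusted 0.00312), -0.619 for Nr3c2 (p = 0.00609, adjusted 0.0122) and -0.0468 for Agtr1a (p = 0.855), so that for Agtr1a the relation was seen in TPM and not in CPM. For Mas1 it was 0.695 (permutation p = 0.00168, adjusted 0.00504, rho = 0.517) and for Agt 0.516 (permutation p = 0.0295, adjusted 0.0442, rho = 0.399, permutation p = 0.102), so that Agt was related to coverage by r in CPM. Within the 8 mice of lower coverage, r in CPM was 0.113 for Atp6ap2, 0.116 for Nr3c2, -0.0942 for Mas1 and -0.0366 for Agt, and within the other 10 it was -0.717, -0.273, 0.494 and -0.0231. None of these relations in CPM therefore held within the lower group, and that of Agt held in neither.

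**Figure D4:**
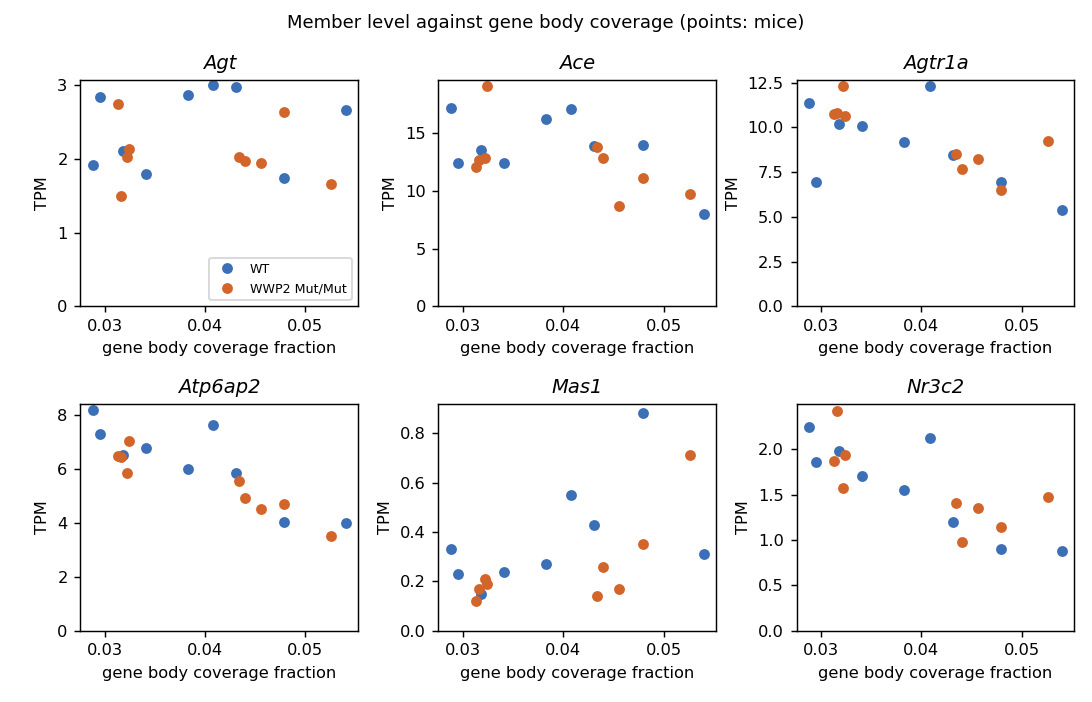
Level in TPM (vertical axes, from 0) of the 6 members against the gene body coverage fraction (horizontal axes), 1 point per mouse, WT in blue and WWP2 Mut/Mut in orange. Atp6ap2 and Nr3c2 decline with coverage in both genotypes (r = -0.878 and -0.805 over the 18 mice), and the r of Agt is 0.0183.

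Members also varied together over the 18 mice in TPM. Of the 15 pairs, 5 had an adjusted permutation p of r under 0.05: Atp6ap2 with Nr3c2 (r = 0.799, rho = 0.827), Agtr1a with Nr3c2 (r = 0.785, rho = 0.833), Ace with Atp6ap2 (r = 0.704, rho = 0.550), Agtr1a with Atp6ap2 (r = 0.630, rho = 0.613) and Ace with Agtr1a (r = 0.567, rho = 0.427). By rho, 3 of these passed, and the adjusted permutation p was 0.0739 for Ace with Atp6ap2 and 0.234 for Ace with Agtr1a. With coverage removed these were 0.326, 0.577, 0.536, 0.154 and 0.321, and in CPM they were 0.418, 0.418, 0.330, -0.00145 and 0.043. Each of the 5 was thus lower with coverage removed and lower in CPM than in TPM. For Agt, r with the other members did not exceed 0.243 in TPM, and was 0.542 with Atp6ap2 with coverage removed and -0.54 with Nr3c2 in CPM.

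The genes whose TPM followed the members most closely were sought among 11336 genes with a mean of at least 1 TPM, by r of log2(TPM + 1) over the 18 mice. For Ace they were Csf1r (r = 0.943), a receptor of macrophages, Gltp (0.921) and Vat1 (0.913). For Agtr1a they were Gadd45a (0.908), Hdac11 (0.903) and 1810043G02Rik (0.886), for Atp6ap2 Snw1 (0.975), Stx12 (0.974) and Gdi2 (0.973), and for Nr3c2 Neo1 (0.957), Rtf1 (0.956) and Cnksr3 (0.949). All 12 of these genes were themselves negatively correlated with coverage, at r from -0.939 to -0.525. The closest to Agt were Ints13 (0.732), Smc6 (0.713) and Hist2h3c2 (0.710), lower r than for the other 4 members compared in this way, while Mas1 and the 3 members with few or no counts were below the minimum of 1 TPM.

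The other genes of the pathway were read from 5 lists, none of which held a gene past the FDR (edgeR, adjusted over all genes). Over all genes, 1.09% were higher and 2.57% lower at an unadjusted p under 0.05. These shares changed with the alternative: 203 of 26787 genes were higher with limma on log2(TPM + 1) and 853 of 24804 with Alb added. Among 17 peptidases that form or break down angiotensin peptides, 1 was higher and 1 lower in WWP2 Mut/Mut mice at an unadjusted p under 0.05, and the median log2 fold change was 0.01. These counts were 3 and 0 without WT 67-1, 0 and 0 without WT 84-2, and 0 and 3 with limma on log2(TPM + 1). Cma1, the mast cell chymase that can form AngII without converting enzyme, was 0.34, 0.85 and 2.21 TPM (lowest, median, highest) in WT and 0.78, 1.39 and 2.09 TPM in WWP2 Mut/Mut mice, overlapping widely (log2 fold change 0.73, SE 0.317, edgeR, adjusted p = 1.0). Other mast cell protease genes had fitted log2 fold changes of 0.58 (Cpa3, SE 0.331), 0.54 (Tpsb2, SE 0.332) and 0.32 (Mcpt4, SE 0.316), and the mast cell receptor genes of -0.66 (Ms4a2, SE 0.639), -0.61 (Fcer1a, SE 0.677) and 0.04 (Kit, SE 0.191). These 6 were named after their values were seen, and none had an unadjusted p under 0.05. The 6 mast cell markers of the list, of which Gata2 made up 5.16 TPM in WT and 4.56 TPM in WWP2 Mut/Mut mice and is not confined to mast cells, summed to 5.74 to 14.5 TPM and 5.21 to 10.3 TPM (exact permutation test, p = 0.893). The part of mast cells in the level of Cma1 was not tested. Enpep, the aminopeptidase that turns AngII into angiotensin III, was 0.90, 2.56 and 2.77 TPM in WT and 1.01, 1.71 and 2.32 TPM in WWP2 Mut/Mut mice (log2 fold change -0.40, SE 0.171, edgeR, adjusted p = 1.0). The most abundant of the list were Ctsd (cathepsin D, 508 ± 79.0 and 488 ± 80.0 TPM), Ctsa (55.2 ± 7.27 and 48.0 ± 6.81), Ece1 (14.8 ± 5.31 and 14.2 ± 4.64) and Rnpep (10.3 ± 1.27 and 9.51 ± 1.21), with log2 fold changes between -0.01 and 0.13.

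Among 12 tested receptor partners of 13 listed, 1 was higher at an unadjusted p under 0.05 and 0 lower, with a median log2 fold change of 0.05. Over the alternatives 0 to 2 were higher and 0 lower. Rgs2, which shortens signaling of the Gq proteins that couple to the AT1 receptor, was 2.59, 4.04 and 13.2 TPM in WT and 3.18, 6.15 and 10.9 TPM in WWP2 Mut/Mut mice (log2 fold change 0.65, SE 0.247, edgeR, adjusted p = 1.0). The range of WT mice enclosed that of WWP2 Mut/Mut mice. Atp6ap1, the other accessory subunit of the vacuolar ATPase, was 53.9 ± 12.6 and 47.0 ± 9.80 TPM, Grk2, a receptor kinase, 20.7 ± 4.87 and 19.0 ± 1.82, Gna11, a Gq family protein, 17.9 ± 2.66 and 16.9 ± 2.19, and Arap1 12 ± 2.38 and 10.9 ± 1.54, none with a log2 fold change beyond 0.09 in either direction.

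Of 10 genes of corticosteroid synthesis, activation and binding, 8 were tested and 1 was lower at an unadjusted p under 0.05 (0 to 1 over the alternatives). Cyp11b1 and Cyp11b2, which complete the synthesis of corticosterone and aldosterone, had 0 counts in all 18 mice, and Cyp21a1 had 2 counts in all. Star, which carries cholesterol into mitochondria for steroid synthesis, was 0.24, 0.37 and 0.60 TPM in WT and 0.10, 0.23 and 0.36 TPM in WWP2 Mut/Mut mice (log2 fold change -0.66, SE 0.212, edgeR, adjusted p = 0.946). The kidney and adrenal list that includes Star summed to 0.35 to 1.48 TPM in WT and 0.20 to 0.76 TPM in WWP2 Mut/Mut mice, most of it Star itself by the medians, with 2 of its 8 genes, Star and Umod (the latter named after its value was seen), lower at an unadjusted p under 0.05. The part of these tissues in the level of Star was not tested. Hsd11b1, which regenerates active glucocorticoid, was 9.80 ± 1.41 and 8.41 ± 1.45 TPM, Nr3c1, the glucocorticoid receptor, 7 ± 3.07 and 5.86 ± 2.31, and H6pd 5.76 ± 1.97 and 5.42 ± 1.86.

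No gene induced through corticosteroid receptors passed the test. None of the 10 had an unadjusted p under 0.05 (edgeR, 0 past the FDR), 4 were higher and 6 lower, and the median log2 fold change was -0.02. Atp1b1, a sodium pump subunit, was 73.0 ± 29.4 and 60.4 ± 21 TPM, Tsc22d3 35.4 ± 12.8 and 34.0 ± 9.27, Dusp1 24.3 ± 8.26 and 19.0 ± 5.61 and Sgk1, a kinase known as an early aldosterone target, 20.7 ± 8.02 and 18.5 ± 4.73 TPM.

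No gene of the list known to be induced by AngII in heart or vessel cells passed the FDR. The list was chosen with earlier results of these data known, so its direction is described here and is not a test. Of 14, 12 had a fitted log2 fold change below 0, 3 of them at an unadjusted p under 0.05 and 0 past the FDR (edgeR), and the median log2 fold change was -0.43, beside -0.01 over all genes. Ccn2, a matricellular growth factor, was 26.5, 60.2 and 85.2 TPM in WT and 20.7, 26.0 and 45.8 TPM in WWP2 Mut/Mut mice (log2 fold change -0.62, SE 0.212, edgeR, adjusted p = 0.963). Rcan1, a calcineurin target and inhibitor, was 22.2, 55.6 and 151 TPM against 23.5, 36.9 and 46.9 (log2 fold change -0.52, SE 0.217, edgeR, adjusted p = 1.0), and Ccl2, a monocyte chemokine, was 1.59, 3.21 and 6.13 TPM against 1.21, 1.95 and 2.81 (log2 fold change -0.50, SE 0.177, edgeR, adjusted p = 0.991). In each of the 3 the highest WT mice were far above every WWP2 Mut/Mut mouse and the lowest mice of the genotypes overlapped.

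The most abundant of the AngII-induced genes were Acta1, Nppa and Nppb, which cardiomyocytes express under load. Nppb was 235, 835 and 1280 TPM in WT and 140, 327 and 651 TPM in WWP2 Mut/Mut mice (log2 fold change -0.66, SE 0.336, edgeR, adjusted p = 1.0), Acta1 902 ± 376 and 716 ± 437 TPM and Nppa 718 ± 235 and 641 ± 157 TPM. The list summed to 1310 to 3960 TPM (median 2570) in WT and 1020 to 2930 TPM (median 1830) in WWP2 Mut/Mut mice. The number of these genes lower at an unadjusted p under 0.05 was 4 without the 5 libraries high in Myl7, Myl4 and Sln. It was 2 to 6 over the 37 alternatives, and the list's median stayed between -0.52 and -0.27. These alternatives use the same list and all or most of the same mice, so they are no independent check. Activated fibroblast markers summed to 85.5 to 217 TPM in WT and 77.8 to 171 TPM in WWP2 Mut/Mut mice (exact permutation test, p = 0.0688). Of these 7 markers, 6 had a fitted log2 fold change below 0, 2 of them at an unadjusted p under 0.05 and 0 past the FDR (edgeR). Their median log2 fold change was -0.391. The part of activated fibroblasts in the values of the AngII-induced genes was not tested. Agtr1a, the receptor that carries the AngII signal, had higher means in WWP2 Mut/Mut mice in both units, as given above, without passing the test over all genes.

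**Figure D5:**
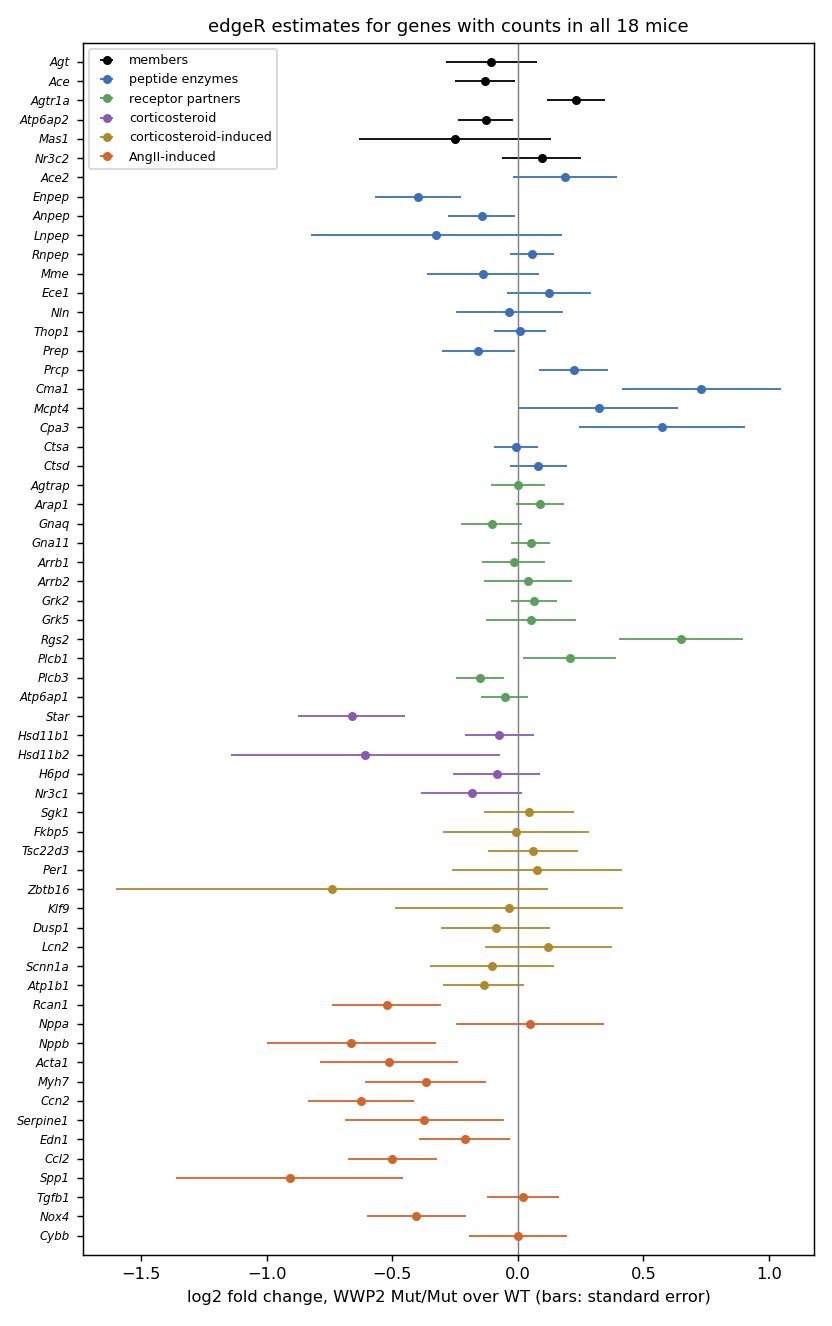
Fitted log2 fold change of WWP2 Mut/Mut over WT (horizontal axis, edgeR, points) with its standard error (bars) for the members and the pathway genes with counts in all 18 mice, colored by list. The members lie between -0.25 and 0.23, and most of the AngII-induced genes at the bottom lie below 0.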

How the data were processed

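The members and lists were chosen with earlier results of these data known. The authors aligned reads of stranded poly(A) libraries to GRCm38 with STAR (2.5.2b), quantified Ensembl 89 genes with RSEM (1.2.31), dropped mitochondrial and rRNA genes, and deposited expected counts and TPM per gene and mouse. The deposited table of samples gives lane, RNA concentration and a gene body coverage fraction, whose definition is not given in the sources used here. TPM summed to 671770 to 826381 over the deposited genes and was used as it stands. The deposited RNA concentration of WT 43-3 was 1.68 ng/µl, beside 88.6 to 320.9 in the other mice, and was used as it stands. Expected counts (5.11% not whole) were rounded and tested with edgeR 4.0.16 (TMM, quasi-likelihood, centred RNA concentration and lane as covariates) over genes with more than 1 count, with Benjamini-Hochberg adjustment. DESeq2 1.42.0 and limma 3.58.1 on log2(TPM + 1) were alternatives. Single values used exact permutation tests over 48620 divisions of the mice, correlations 100000 permutations. Scripts were tested on simulated data. Symbols and Agtr1a and Agtr1b sequences came from GENCODE M21, matching 51242 of 51435 identifiers. Replicates are separate mice. Every pair within a genotype differed by more than sampling noise. Named list genes were the members, Wwp2, Alb, genes at an unadjusted p under 0.05 and the 4 most abundant per list. Cyp11b1, Cyp11b2, Cyp21a1 and the mast cell genes beside Cma1 were named after their values were seen.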

Additional observations from a re-analysis of the deposited data

Results flagged for a closer look

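Within each genotype of 9 mice, the gap of the highest or lowest mouse to the next was taken as a share of the range. A mouse was singled out when this share exceeded Dixon's 95% limit for 9 samples. For continuous values chance gives this in about 1 of 20 groups, and the limit was not adjusted for the number of groups screened. Ace in TPM was singled out in WWP2 Mut/Mut 62-1, at 19.1 beside 8.67 to 13.8 in the other 8. WWP2 Mut/Mut 52-1 was singled out for Mas1, at 0.71 TPM beside 0.12 to 0.35 and at 1.67 CPM beside 0.258 to 0.789, and for Atp6ap2, at 12.3 CPM beside 16.3 to 19.6. This mouse had the highest coverage fraction of its genotype, 0.0526. Among genes at a few counts, these mice were singled out: Agtr2 at 0.01 TPM in WT 39-1 and 0.02 TPM in WWP2 Mut/Mut 22-3, and Ren1 at 0.05 TPM in WT 84-2 and 0.03 TPM in WWP2 Mut/Mut 24-3. Except for WT 84-2, no other mouse of the genotype had a count. The rule then singles out the mouse with a count whatever its level, and the stated chance does not apply.

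The correlation of Agt with Alb had opposite signs in the genotypes, 0.728 in WT and -0.618 in WWP2 Mut/Mut mice in TPM, and 0.792 and -0.825 without the 2 mice of each genotype farthest from its median Alb. The Fisher-transformed difference was 1.65 (exact permutation of labels, p = 0.00535), and p was 0.00074 after both measures were centred within genotype. With Agt in CPM the correlations were 0.776 and -0.283, the difference was 1.33 and p was 0.00901 (exact permutation). Alb reached 112.5 TPM in WT and 18 TPM in WWP2 Mut/Mut mice, so the genotypes cover different ranges of liver transcripts. The part of that difference in range was not tested.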

How the results depend on the processing

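No member was called under any of the 37 alternatives. The number of genes called (1, Wwp2) was 1 to 2 when single mice were left out, 2 without WWP2 Mut/Mut 1-2 or WT 84-2, and 0 without the 5 libraries high in Myl7, Myl4 and Sln, an alternative chosen after seeing the data with fewer mice, where Wwp2 had an adjusted p of 0.204 (edgeR). Small member fold changes turned sign as follows, and the cause was not tested. With Alb added the log2 fold change was 0.0523 for Agt and 0.0636 for Mas1, with the liver list 0.0771 and 0.0246. Without covariates Ace was 0.00527, and without the 5 libraries Mas1 was 0.00357. Nr3c2 was -0.0459 under limma on log2(TPM + 1), with and without a filter at 1 TPM, -0.0579 with a pseudocount of 0.1 and -0.0529 on rescaled TPM. In CPM the difference turned for Ace (exact permutation p = 0.963) and Nr3c2 (0.331). In TPM it turned for Nr3c2 without WT 45-1 (exact permutation p = 0.89). Agtr1a had an unadjusted p under 0.05 in 11 of the 37 alternatives, where leaving out WT 45-1 and leaving out the library with high Alb are the same fit counted under both. In the limma fits on TPM its log2 fold change was 0.035 to 0.0446 (unadjusted p from 0.803 to 0.86). In edgeR with library totals it was 0.151 (unadjusted p = 0.306). Without WT 43-3, whose RNA concentration stands apart, and with lane as the only covariate, no member's log2 fold change turned sign, and Mas1 moved to -0.441 and Ace to -0.00408 with lane alone. The TPM filter moved the median over all genes to -0.133, against which fold changes under that alternative are to be read. No library exceeded 10 times the median of the whole atrial list, so that alternative gave no value. Relations within lanes, in CPM and with coverage were also added after seeing the data. No paired analysis was possible because the genotypes share no replicate numbers. With at most 55 counts per mouse, Mas1 is limited by depth, as are Agtr2 and Ren1.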
